A study of Mus musculus with 23 samples.

Results

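Cd4, Cd8a, Cd8b1, Thy1, Cd5, Cd6 and Cd2 encode surface molecules best known from T cells, and their transcripts were followed here in mouse splenic dendritic cells. The 7 genes were taken by gene symbol. Each is read by 1 probe set that names no other gene, among 28853 probe sets on the array. All 7 passed the filter on low values, which asked for a level above the array's median on at least 3 arrays, as did 12157 of the 19938 genes with a probe set of their own.

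The study sorted 3 kinds of dendritic cell from the spleen, the conventional subsets cDC1 and cDC2 and plasmacytoid dendritic cells (pDC), from mice labelled Bcl6cKO, hereafter cKO, and from mice labelled WT. Bcl6 encodes a transcriptional repressor. There were 23 arrays, 4 of cKO cDC1 against 3 of WT cDC1, 5 of cKO cDC2 against 3 of WT cDC2, and 5 of cKO pDC against 3 of WT pDC. Spleens were digested with collagenase B and DNaseI, red cells were lysed, and total RNA was labelled with a low-input Affymetrix kit. The strain, age and sex of the mice, the Bcl6 allele, the agent that deletes it, the sort gates and whether a replicate was 1 animal or a pool are not given in the sources used here. The p-values therefore measure the spread between these arrays, which may be partly technical.

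Values are log2 of the deposited intensity, compared between groups for 1 gene at a time. Differences were tested with limma on all 23 arrays, and a gene is called changed at a Benjamini-Hochberg adjusted p below 0.05 over the 12157 genes. The Bcl6 probe set averaged 8.39 ± 0.29 in cKO cDC1 and 7.42 ± 0.61 in WT cDC1 (SD, n = 4 and 3), 8.0 ± 0.51 in cKO cDC2 and 7.31 ± 0.46 in WT cDC2 (n = 5 and 3), and 5.72 ± 0.52 in cKO pDC and 5.87 ± 0.47 in WT pDC (n = 5 and 3), with no difference called. Since the deleted exons are not given here, that probe set may lie outside them, and cKO and WT stand for the labelled genotypes. The marker lists of cDC1 and pDC set their own cells apart by summed intensity. The cDC1 list summed to 13666 to 21282 in cDC1 and to no more than 4253 in other cells. The pDC list summed to 20443 to 33661 in pDC and to no more than 3017 in other cells. Counts of markers above the array median on every array parted the cells less. They were 10 of 10 cDC1 markers in cDC1 against 8 in cKO cDC2, and 8 of 8 measured pDC markers in pDC against 6 in each conventional group. The cDC2 list did not part cDC2 from pDC: its summed intensity was 5400 to 9808 in cKO cDC2 and 4014 to 5410 in WT cDC2, against 2984 to 5464 in cKO pDC and 4537 to 5738 in WT pDC. Of its 10 markers, 5 rose and 2 fell in cKO cDC2 (median 0.66), among them Clec10a, higher by 2.41, and Clec4a4, lower by 2.72 (limma adjusted p = 0.00245 and 2.0e-06), and 4 rose in cKO cDC1. Of all genes tested, 1.56% were called between the genotypes in cDC2 and 0.831% in cDC1. The arrays fell into a set of 9 and a set of 14 by their median intensity, each holding all 6 groups. Xist stood at 10.90 to 11.89 on replicate 1 of each WT group and at 3.79 to 5.07 on the other 20 arrays.

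In T cells, CD4 and the CD8 alpha and beta chains form coreceptors that bind MHC class II and class I molecules beside the T cell receptor. CD4 and the CD8 alpha chain carry the kinase Lck. CD2 and the scavenger-type receptors CD5 and CD6 adjust the strength of T cell receptor signals, and Thy1 is a small glycolipid-anchored protein of the T cell surface. Mouse dendritic cells carry some of these molecules without a T cell receptor: CD8 alpha, as a homodimer, is a classical label of splenic cDC1, and CD4 of a large part of splenic cDC2.

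RefSeq promoter windows, from 250 bases before to 50 bases after the gene's start on GRCm38.p6, were at hand for 2 of the 7 genes. Both are shown because Cd8a was called between every pair of cell types and Cd5, in the fit of all arrays, between none. Capitals mark the only match in each window to 4 motifs searched on both strands.
Cd8a, chr6:71373177-71373476, plus strand: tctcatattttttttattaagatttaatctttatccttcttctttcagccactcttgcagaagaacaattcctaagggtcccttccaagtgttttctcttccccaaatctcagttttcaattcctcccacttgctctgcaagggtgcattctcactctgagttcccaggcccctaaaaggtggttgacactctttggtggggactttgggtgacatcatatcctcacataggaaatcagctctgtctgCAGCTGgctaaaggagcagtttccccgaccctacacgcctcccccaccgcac
Cd5, chr19:10738925-10739224, minus strand: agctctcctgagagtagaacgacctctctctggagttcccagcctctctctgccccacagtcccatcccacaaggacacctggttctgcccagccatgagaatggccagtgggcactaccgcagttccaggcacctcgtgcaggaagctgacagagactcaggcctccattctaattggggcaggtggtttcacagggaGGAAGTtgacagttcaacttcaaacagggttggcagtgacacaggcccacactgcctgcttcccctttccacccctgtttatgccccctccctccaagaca
The Cd8a window holds the E-box CAGCTG, as do 16.3% of 32851 promoters, and the Cd5 window the ETS-type GGAAGT, as do 23.8%. Neither window holds the RUNX-type TGTGGT, found in 16.8% of promoters, or the BCL6-type core TTCCNNGAA, found in 4.81%, where N is any base. These matches describe the letters only. Cd4, Cd8b1, Thy1, Cd6 and Cd2 were the other members.

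Of the coreceptor genes, Cd4 and Cd8a parted all 3 cell types and Cd8b1 parted pDC from both conventional subsets, and none of them passed a test between genotypes. Thy1 and Cd6 passed no test between WT cell types and rose in cKO cDC2, where Cd2 was higher without passing the test. Cd2 was also lower in both WT conventional subsets than in WT pDC. Cd5 passed no test in the fit of all arrays, though some of its differences passed under other settings. Over all arrays the members' values spanned 5.38 (Cd4), 4.73 (Cd8a) and 5.70 (Cd8b1) on the log2 scale, against 2.61 for Thy1 and 1.68 to 2.03 for Cd5, Cd6 and Cd2. Cd8b1, Cd5, Cd6 and Cd2 lay above the array's median on all 23 arrays, Cd4 and Thy1 on 21 and Cd8a on 20.

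**Figure D1:**
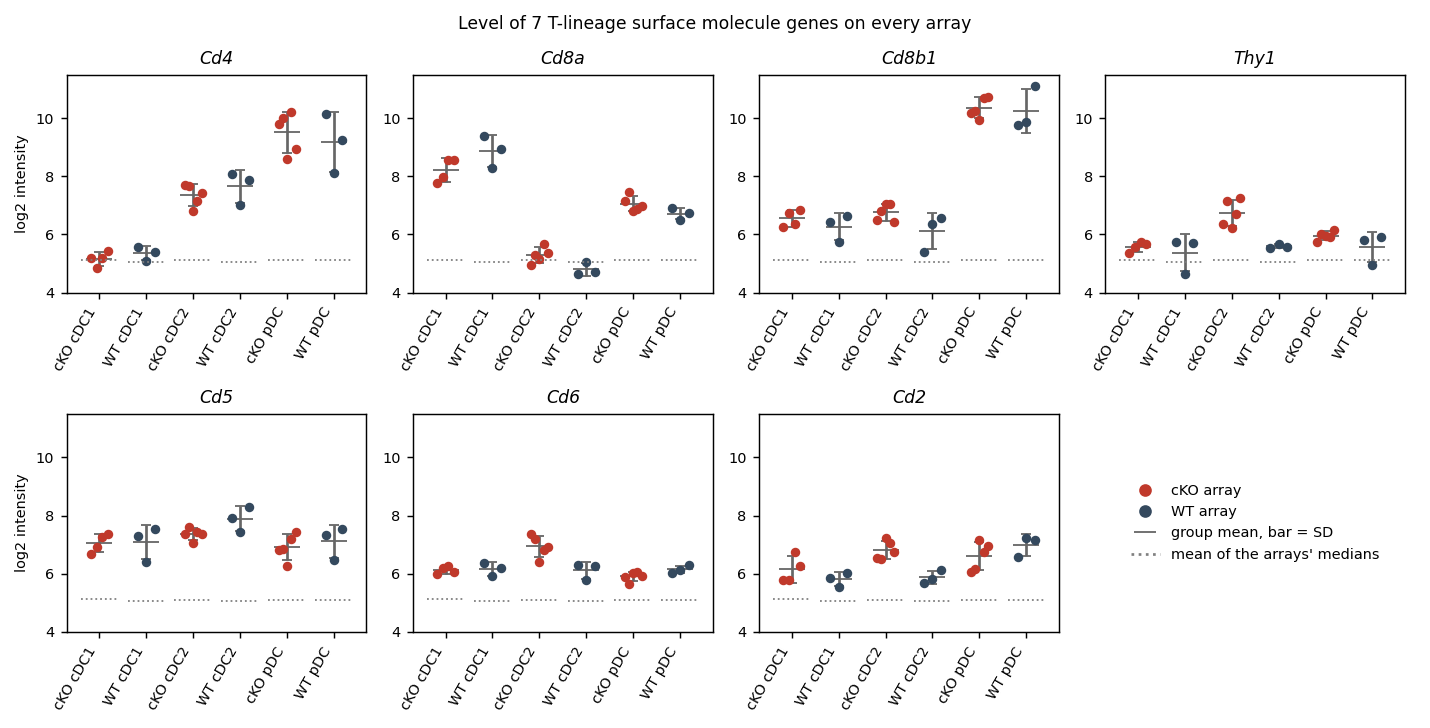
Log2 intensity of each gene (vertical axis) on every array, by group (horizontal axis), with group means, SD bars and the mean of the arrays' medians as a dotted line. Cd4 and Cd8a separate the 3 cell types, Cd8b1 separates pDC from the other cells, and Thy1 and Cd6 lie highest in cKO cDC2.

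Cd4 read 5.19, 4.84, 5.20 and 5.43 in cKO cDC1, against 5.58, 5.10 and 5.41 in WT cDC1. In cKO cDC2 it read 7.69, 7.67, 6.81, 7.16 and 7.41, against 8.09, 7.02 and 7.88 in WT cDC2. In cKO pDC it read 9.79, 10.00, 8.61, 10.22 and 8.95, against 10.15, 8.11 and 9.26 in WT pDC. The 3 cell types did not overlap in either genotype, with cDC1 at about the array median, cDC2 between, and pDC highest and most spread. Among WT cells, Cd4 was 2.30 lower in cDC1 than in cDC2 (SE 0.43, limma adjusted p = 0.00090), and 3.81 lower in cDC1 than in pDC (adjusted p = 5.7e-07). It was 1.51 lower in WT cDC2 than in WT pDC (SE 0.43, adjusted p = 0.020). That last call ended without WT cDC2 replicate 2 (-1.19, adjusted p = 0.120), WT pDC replicate 1 (-1.02, 0.155) or WT pDC replicate 3 (-1.46, 0.053). In cKO cells the same 3 differences were -2.18, -4.35 and -2.17, with adjusted p from 1.7e-09 to 0.00013, and no left-out array ended them.

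Cd8a, whose product is the CD8 alpha chain, ran in another order. It read 7.77, 7.99, 8.55 and 8.57 in cKO cDC1, against 9.37, 8.29 and 8.95 in WT cDC1. It read 4.94, 5.31, 5.16, 5.68 and 5.36 in cKO cDC2, against 4.64, 5.05 and 4.70 in WT cDC2. The pDC values were 7.14, 7.45, 6.81, 6.88 and 6.97 in cKO, against 6.90, 6.51 and 6.74 in WT. It was thus highest in cDC1, intermediate in pDC and near the array median in cDC2, and the cell types did not overlap in either genotype. WT cDC1 exceeded WT cDC2 by 4.07 (SE 0.27, adjusted p = 4.4e-10), and WT pDC by 2.15 (adjusted p = 3.1e-06). WT cDC2 was 1.92 below WT pDC (adjusted p = 1.8e-05). The cKO differences were 2.93, 1.17 and -1.76 in the same order, each with an adjusted p of 0.00039 or less.

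Cd8b1, which encodes the beta chain that pairs with CD8 alpha on cytotoxic T cells, was highest in pDC, though above the array median on every array. It read 10.19, 10.24, 9.92, 10.71 and 10.73 in cKO pDC and 9.75, 9.87 and 11.11 in WT pDC. On the 15 conventional dendritic cell arrays it lay between 5.41 and 7.04, so that no such array came within the pDC range. In cKO cells it was 3.8 lower in cDC1 than in pDC, or 13.9-fold, and 3.59 lower in cDC2 than in pDC, or 12.1-fold (SE 0.29 and 0.27). In WT cells these differences were -3.97 and -4.13, or 15.7- and 17.5-fold (SE 0.35 each), and the 4 adjusted p-values ran from 5.2e-10 to 1.1e-08. Between cDC1 and cDC2 the difference was -0.21 in cKO and 0.16 in WT, with 95% intervals of -0.80 to 0.39 and -0.56 to 0.89. The alpha and beta genes, which are neighbours on chromosome 6 in the RefSeq gene table, were therefore highest in different cell types. Their Pearson correlation over the 23 arrays was 0.08, against 0.79 for Cd4 with Cd8b1 and -0.41 for Cd4 with Cd8a. These correlations are descriptions of arrays that share cell types.

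**Figure D2:**
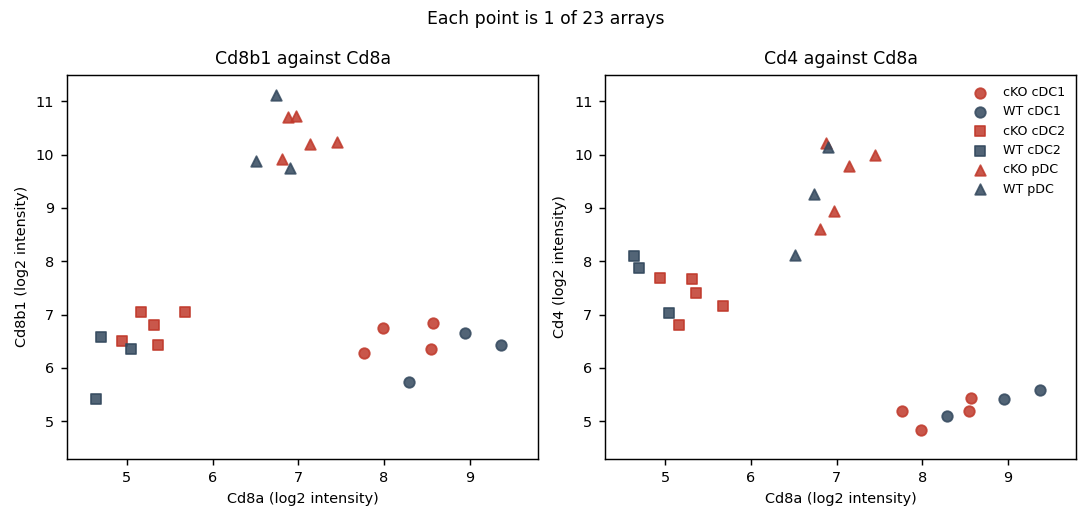
Log2 intensity of Cd8b1 (left) and Cd4 (right) on the vertical axis against Cd8a on the horizontal axis, with 1 point for each of 23 arrays, shaped by cell type and coloured by genotype. The 3 cell types form separate clouds in both panels, with pDC high for Cd8b1 and Cd4 and cDC1 high for Cd8a.

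Over the 7 genes, 4 were called between cKO cDC1 and cKO cDC2, 3 between cKO cDC1 and cKO pDC and 5 between cKO cDC2 and cKO pDC, where 8.95%, 20.4% and 20.8% of all genes tested were called. In WT cells the counts were 2, 4 and 4, with 6.05%, 13.5% and 12.7% of all genes called. The counts without overlap between groups were 4, 4 and 5 in cKO cells and 2, 4 and 4 in WT cells, where 11.2%, 17.4%, 14.6%, 17.1%, 20.8% and 20.1% of all genes did not overlap, in that order. Cd4 and Cd8a were called in all 6 comparisons and Cd8b1 in the 4 that involve pDC. Since the sort gates are not given, whether CD4 or CD8 alpha was used to sort the cells is not known here. In sorted bulk samples, a lower share of cells carrying a transcript and less of it per cell cannot be told apart.

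**Figure D3:**
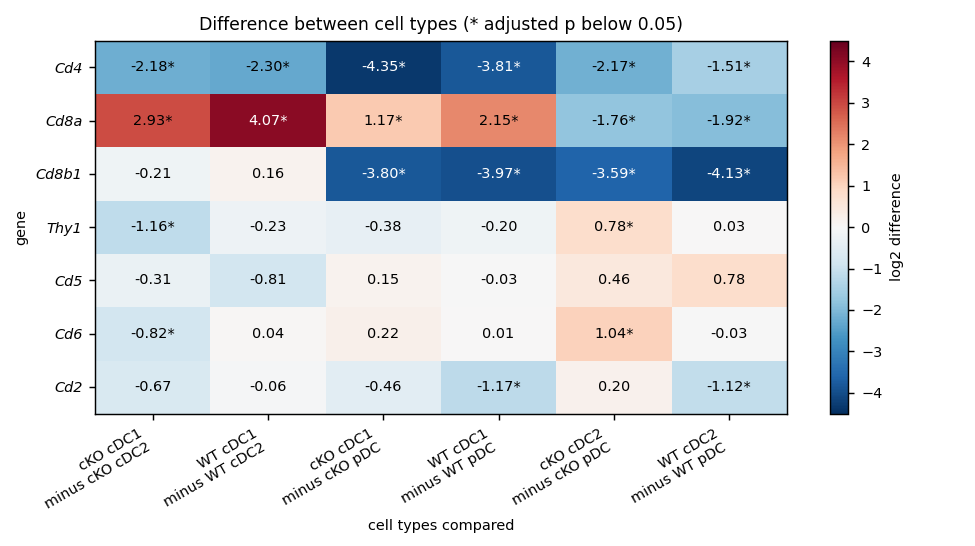
Log2 difference between cell types (colour and number) for each gene (rows) in 6 comparisons (columns), with a star at an adjusted p below 0.05. Stars fill the rows of Cd4 and Cd8a, and the row of Cd5 has none.

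Cd2, an adhesion receptor whose mouse ligand is CD48, was highest in WT pDC. It read 6.05, 6.15, 7.17, 6.75 and 6.95 in cKO pDC and 6.56, 7.24 and 7.16 in WT pDC. WT cDC1, at 5.87, 5.56 and 6.01, was 1.17 below WT pDC (SE 0.31, adjusted p = 0.0099), and WT cDC2, at 5.67, 5.82 and 6.13, was 1.12 below WT pDC (adjusted p = 0.015). Neither WT conventional group overlapped WT pDC. The first call ended without WT cDC1 replicate 2 (-1.05, adjusted p = 0.052), and the second without WT cDC2 replicate 1, WT pDC replicate 2 or WT pDC replicate 3 (adjusted p of 0.074, 0.067 and 0.055). In cKO cells the groups overlapped, and the differences of cDC1 and cDC2 from pDC were -0.46 and 0.20 (adjusted p = 0.231 and 0.654).

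Cd5, a scavenger-type receptor that dampens antigen receptor signals, was the member with no call between cell types in the fit of all arrays. It ranged from 6.69 to 7.35 in cKO cDC1 and 6.42 to 7.53 in WT cDC1, from 7.07 to 7.61 in cKO cDC2 and 7.45 to 8.30 in WT cDC2, and from 6.27 to 7.43 in cKO pDC and 6.47 to 7.53 in WT pDC. Its mean was highest in WT cDC2, at 7.89 ± 0.43 (SD, n = 3), and each group in the order of means overlapped the next. WT cDC1 lay 0.81 below WT cDC2 (95% interval -1.48 to -0.13, adjusted p = 0.207), and WT cDC2 lay 0.78 above WT pDC (0.10 to 1.45, adjusted p = 0.143). Same-numbered WT arrays deviated together. Blocked by that number in a fit of the 9 WT arrays alone, both differences passed at the same size (adjusted p = 0.00866 and 0.006). WT replicates 1, 2 and 3 each came from 1 of 3 sets of arrays by median intensity, so that the number and the array set cannot be told apart.

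Between genotypes, 2 of the 7 genes were called in cDC2, where 1.56% of all genes tested were called: Thy1 and Cd6, both higher in cKO. None was called in cDC1 or in pDC, where 0.831% and 0.0329% of all genes were called. At an unadjusted p below 0.05, cDC1 had Cd8a alone, cDC2 had Thy1, Cd6, Cd2 and Cd8b1, and pDC had no member. The share of all genes under that unadjusted threshold was not counted in the fit of all arrays, so these are descriptions only. The median difference of the 7 was -0.02 in cDC1, 0.65 in cDC2 and 0.11 in pDC, beside 0.06, 0.07 and 0.05 over all genes tested. Groups did not overlap for 3 members in cDC2, Thy1, Cd6 and Cd2, where 4.71% of all genes did not overlap, and for no member in cDC1 or pDC, where 4.22% and 0.666% did not.

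**Figure D4:**
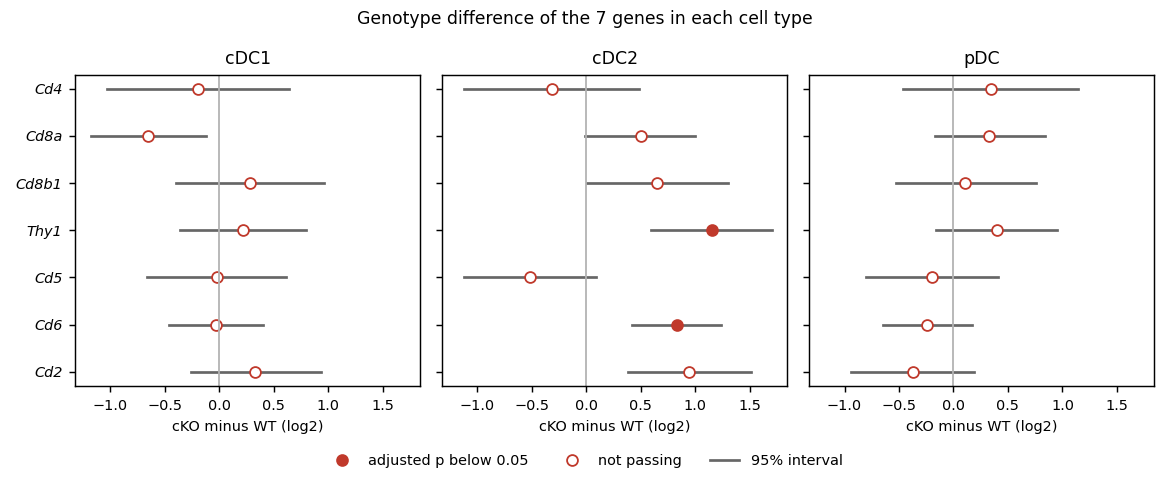
Log2 difference, cKO minus WT (horizontal axis), with its 95% interval for each gene (vertical axis) in cDC1, cDC2 and pDC; filled points passed an adjusted p of 0.05. The filled points are Thy1 and Cd6 in cDC2.

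Thy1 read 6.37, 7.14, 6.22, 6.72 and 7.24 in cKO cDC2, against 5.54, 5.66 and 5.58 in WT cDC2. The WT arrays lay close together (SD 0.06, n = 3), and every cKO array lay above them. Thy1 rose by 1.15 in cKO cDC2, or 2.21-fold (SE 0.27, 95% interval 0.59 to 1.70, limma adjusted p = 0.027). Within the sets of arrays parted by median intensity the difference was 1.40 in the brighter and 0.98 in the dimmer one, and with the set as a term it was 1.13 (adjusted p = 0.00905). The call ended when any 1 of the 3 WT cDC2 arrays was left out (1.12, 1.18 and 1.14, adjusted p = 0.132, 0.084 and 0.10) or without cKO cDC2 replicate 2 or 5 (1.04 and 1.02, adjusted p = 0.078 for each). It also ended without the 3 WT arrays of high Xist (1.12, adjusted p = 0.136) and in a fit on the cDC2 arrays alone (1.15, adjusted p = 0.066).

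In cDC1 and pDC the genotypes were not parted for Thy1. It read 5.35, 5.57, 5.73 and 5.67 in cKO cDC1, against 5.75, 4.63 and 5.71 in WT cDC1. It read 5.75, 6.02, 5.95, 5.91 and 6.15 in cKO pDC, against 5.80, 4.96 and 5.91 in WT pDC. The genotypes overlapped in both cell types, with differences of 0.22 in cDC1 and 0.40 in pDC (95% intervals -0.36 to 0.80 and -0.16 to 0.95). Among cKO cells, Thy1 was 1.16 lower in cDC1 than in cDC2 (adjusted p = 0.0025) and 0.78 higher in cDC2 than in pDC (adjusted p = 0.017). The second call ended without cKO cDC2 replicate 2 or 5 (0.68 and 0.66, adjusted p = 0.054 and 0.061). In the same comparison the T cell receptor partners Cd3d and Cd3g were called higher in cKO cDC2 than in cKO pDC, by 1.29 and 1.62 (adjusted p = 0.0098 and 0.020). Among WT cells the 3 differences lay between -0.23 and 0.03.

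Cd6, a scavenger-type receptor that binds ALCAM and lies beside Cd5 on chromosome 19, read 7.36, 7.20, 6.42, 6.82 and 6.93 in cKO cDC2, against 6.30, 5.79 and 6.25 in WT cDC2. Every cKO cDC2 array lay above every WT cDC2 array. Cd6 rose by 0.83 in cKO cDC2, or 1.78-fold (SE 0.20, 95% interval 0.42 to 1.24, adjusted p = 0.032), with 0.63 in the brighter and 0.94 in the dimmer set of arrays. The call ended without WT cDC2 replicate 1, 2 or 3 (0.92, 0.67 and 0.90, adjusted p = 0.064, 0.291 and 0.068), without cKO cDC2 replicate 1, 2 or 5 (0.73, 0.77 and 0.83, adjusted p = 0.087, 0.087 and 0.063) and without the 3 WT arrays of high Xist (0.92, adjusted p = 0.082). It also ended in a fit on the cDC2 arrays alone (0.83, adjusted p = 0.236), after median centring (0.79, adjusted p = 0.087) and after quantile normalization (0.72, adjusted p = 0.086).

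Elsewhere Cd6 kept to a narrow range. It read 6.0, 6.19, 6.25 and 6.05 in cKO cDC1, against 6.37, 5.91 and 6.19 in WT cDC1, and 5.89, 5.65, 6.03, 6.05 and 5.91 in cKO pDC, against 6.03, 6.12 and 6.29 in WT pDC. The genotype differences were -0.03 in cDC1 and -0.24 in pDC (95% intervals -0.46 to 0.40 and -0.65 to 0.17). Among cKO cells, Cd6 was 0.82 lower in cDC1 than in cDC2 (adjusted p = 0.0039) and 1.04 higher in cDC2 than in pDC (adjusted p = 6.8e-05), and no left-out array ended either call. The second is the comparison in which Cd3d and Cd3g were called too. Among WT cells the 3 differences lay between -0.03 and 0.04. Cd5, its neighbour and relative, went the other way in cDC2 without passing the test: 7.38, 7.61, 7.07, 7.43 and 7.37 in cKO, against 7.92, 7.45 and 8.30 in WT, a difference of -0.52 (95% interval -1.12 to 0.09, adjusted p = 0.997).

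Cd2 read 6.54, 6.51, 7.23, 7.06 and 6.74 in cKO cDC2, against 5.67, 5.82 and 6.13 in WT cDC2. The groups did not overlap, and the difference of 0.94 missed the threshold (SE 0.27, 95% interval 0.38 to 1.51, adjusted p = 0.114). With the array set as a term it was 0.92 and passed (adjusted p = 0.031), as it did after median centring (0.90, adjusted p = 0.029), while over all alternatives the adjusted p ran from 0.0037 to 0.435. In cKO cDC1 it read 5.79, 5.80, 6.74 and 6.26, and the difference from WT cDC1 was 0.33 (adjusted p = 1.0). In pDC the difference was -0.37 (95% interval -0.94 to 0.19).

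Cd8a differed between genotypes by -0.65 in cDC1 (95% interval -1.18 to -0.12, adjusted p = 0.822). The highest WT cDC1 value, 9.37 on replicate 1, came from an array of high Xist, and without the 3 such arrays the difference was -0.40. In cDC2 Cd8a differed by 0.50 (-0.01 to 1.0) and Cd8b1 by 0.65 (0.01 to 1.30), and neither passed (adjusted p = 0.802 and 0.755). Cd4 differed by -0.20 in cDC1, -0.32 in cDC2 and 0.34 in pDC, with intervals of -1.03 to 0.64, -1.12 to 0.48 and -0.46 to 1.14.

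Whether a genotype difference varied between cell types was tested as an interaction, and no member was called. Between cDC1 and cDC2, cDC1 and pDC, and cDC2 and pDC, 0.280%, 0.329% and 0.485% of all genes were called. The genotype difference of Thy1 was 0.93 smaller in cDC1 than in cDC2 (SE 0.39, adjusted p = 1.0) and that of Cd6 was 0.86 smaller (SE 0.29, adjusted p = 0.564). In cDC2 minus pDC these were 0.75 for Thy1, 1.07 for Cd6 and 1.32 for Cd2 (adjusted p = 1.0, 0.140 and 0.267). For Cd6 and Cd2 they passed under some alternatives, with adjusted p from 0.016 to 0.385 and from 0.0074 to 0.480. The Cd8a difference was 1.14 lower in cDC1 than in cDC2 (SE 0.35, unadjusted p = 0.0037, adjusted p = 0.424). At an unadjusted p below 0.05, the cDC1 and cDC2 effects differed for Cd8a, Thy1 and Cd6, the cDC1 and pDC effects for Cd8a, and the cDC2 and pDC effects for Cd6 and Cd2. For these tests too the share of all genes under the unadjusted threshold was not counted.

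Other lymphocyte genes moved in cDC2 beside Thy1 and Cd6. The gene lists used here and below were chosen with earlier results of these data known, so their counts and medians are not independent support. Among 18 other lymphocyte surface molecules tested, 3 rose and none fell in cKO cDC2, with a median difference of 0.57, where 1.56% of all genes were called with a median of 0.07. They were Il2rb, the beta chain of the interleukin receptors for IL-2 and IL-15, Il7r, the interleukin-7 receptor, and Cd226, an activating receptor of T and NK cells. Il2rb averaged 8.68 ± 0.56 in cKO cDC2 and 6.60 ± 0.43 in WT cDC2 (SD, n = 5 and 3), a rise of 2.08 (adjusted p = 0.00018). Il7r averaged 8.94 ± 0.22 and 6.94 ± 0.43 in the same order, a rise of 2.0 (adjusted p = 8.8e-06), and Cd226 rose by 1.84 (adjusted p = 0.0093), a call that ended without WT cDC2 replicate 1 (1.36, adjusted p = 0.156) and without the 3 WT arrays of high Xist (1.36, adjusted p = 0.181). Of 21 regulators of Cd4 and Cd8 transcription, whose median was 0.19, 1 was called: the T-lineage factor Gata3, higher by 1.37 (adjusted p = 0.0067), and that call ended without WT cDC2 replicate 1 (1.22, adjusted p = 0.083) or 2 (1.10, adjusted p = 0.101), without the WT arrays of high Xist (1.22, adjusted p = 0.108) and in a fit on the cDC2 arrays alone (1.37, adjusted p = 0.057).

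Parts of the T cell receptor complex were higher in cKO cDC2 without passing the test in the fit of all arrays. Cd3g read 7.08, 7.68, 8.76, 8.07 and 7.96 in cKO cDC2, against 5.39, 6.04 and 6.13 in WT cDC2 (2.06, adjusted p = 0.079). Cd3d read 5.96, 6.17, 7.33, 7.17 and 7.08, against 5.09, 5.76 and 5.43 (1.32, adjusted p = 0.166), and Cd3e differed by 0.67 (adjusted p = 0.220). Cd3g passed in the fit on the cDC2 arrays alone, which ended the calls of Thy1 and Cd6 (2.06, adjusted p = 0.0106), with 3 array sets as a term (0.0232), array weights (0.0122) and without any 1 of 3 pDC arrays (0.0352 to 0.049). Cd3d passed with 3 array sets as a term (1.40, adjusted p = 0.00743), with array weights (1.40, 0.0327) and without cKO pDC replicate 3 (1.32, 0.0339). None of 18 tested genes of the CD3 complex and T cell receptor signalling was called in cDC2, where 1.56% of all genes were called. Their median was 0.38, beside 0.07 over all genes tested. Of 12 T cell markers on the array, 7 were tested, none was called, and all 7 had a difference above 0, with a median of 0.56. Their summed intensity over the 12 was 617 to 1077 in cKO cDC2 (median 926) and 380 to 580 in WT cDC2 (median 522), so the groups did not overlap. The T cell markers Themis, Trat1, Cd40lg, Ubash3a and Camk4 did not pass the filter. Trat1 lay at 2.95 to 3.31 in cKO cDC2 and 2.88 to 3.15 in WT cDC2, and Cd40lg at 3.52 to 4.15 and 3.66 to 4.0.

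The 10 NK cell markers summed to 1151 to 2042 in cKO cDC2 and 878 to 1612 in WT cDC2, and of 7 tested all differed by more than 0, with a median of 0.56 and none called. Over all genes tested, 1.56% were called and the median was 0.07. The NK receptor Ncr1 differed by 1.65 (adjusted p = 0.138). Among the 5 cKO cDC2 arrays, levels as deposited put Cd2 highest on replicates 3 and 4, where Cd3d and Cd3g were also highest. On the same scale Thy1 was highest on replicates 5 and 2, and Cd6 on replicates 1 and 2, the arrays with the lowest Cd3d and Cd3g. Replicates 4 and 5 came from the brighter array set, and the order of Cd3g depended on that scale. Above the array's median, Cd3g stood at 2.13, 2.81, 3.74, 2.73 and 2.62 on replicates 1 to 5, with replicate 2 second highest. Cd3d stood at 1.01, 1.3, 2.32, 1.83 and 1.74. Other lymphocyte genes ran in another order. Ncr1 (6.99 and 6.65) and Zap70, of T cell receptor signalling (6.13 and 5.96), were highest on replicates 2 and 1. Cd3e was highest on replicate 2 (6.84) and lowest on replicate 1 (6.45), while above the array's median it was lowest on replicate 5 (1.18). The part of T or NK cell transcripts in the values of Thy1, Cd6 and Cd2 was not tested.

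**Figure D5:**
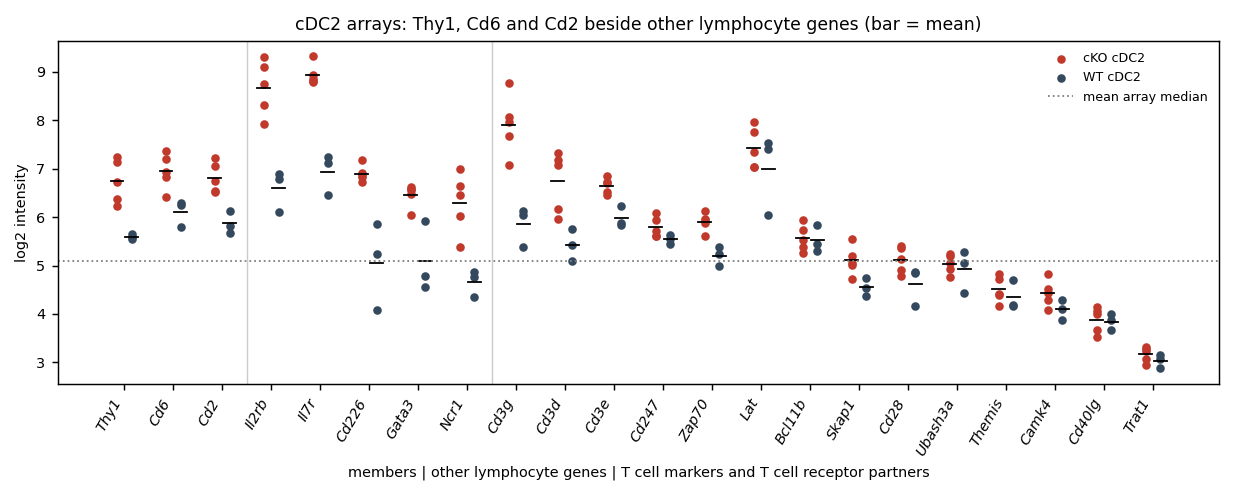
Log2 intensity (vertical axis) on the 5 cKO and 3 WT cDC2 arrays of Thy1, Cd6 and Cd2 (left), other lymphocyte genes (middle) and T cell markers with partners of the T cell receptor (right), with bars at group means. All genes at the left and in the middle separate by genotype, as do Cd3g, Cd3d, Cd3e and Zap70 at the right. Themis, Camk4, Cd40lg and Trat1 lie below the dotted mean of the array medians.

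Ligands and partners of the members followed no common direction in cKO cDC2. Of 16 tested, 8 differed by more than 0, with a median of 0.02, beside 0.07 over all genes tested. Called were 1 higher and 1 lower, where 1.56% of all genes were called. Itgam, an integrin chain that binds Thy1, rose by 1.25 (adjusted p = 0.013). Cd72, a B cell inhibitory receptor described as a CD5 ligand, fell by 1.65 (6.14 ± 0.30 in cKO, 7.79 ± 0.20 in WT, adjusted p = 0.00056). The Itgam call ended without WT cDC2 replicate 2 or 3 (1.20 and 1.16, adjusted p = 0.077 and 0.091), after median centring (1.21, adjusted p = 0.071) and in a fit on the cDC2 arrays alone (1.25, adjusted p = 0.080). Itgam also rose in cKO cDC1, by 2.14 (adjusted p = 5.4e-05), where it was the 1 partner called and 0.831% of all genes were called. Alcam, the ligand of CD6, was higher in cDC2 than in pDC by 1.30 in cKO and 1.13 in WT (adjusted p = 3.6e-05 and 0.0043). None of 10 tested genes of the CD2 and SLAM family, Cd2 among them, was called between genotypes in any cell type. Of all genes, 0.831% were called in cDC1, 1.56% in cDC2 and 0.0329% in pDC. For WT cDC1 against WT pDC, 2 genes of that family were called with a rise and 5 with a fall, where 13.5% of all genes were called. Slamf8 was 5.13 higher and Slamf9 3.26 lower in WT cDC1 (adjusted p = 1.0e-08 and 4.5e-06). Calls for Slamf8 and Slamf9 were not particular to that comparison. They were also called in WT cDC2 against WT pDC (3.62 and -3.0). In cKO cells they were called in cDC1 against pDC (4.72 and -3.1) and cDC2 against pDC (3.24 and -2.62).

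The pDC, where Cd8b1 and Cd4 were highest, also carried other lymphoid transcripts. Of 7 tested lymphoid genes listed for their known presence in pDC, 6 were lower in cDC1 and 6 in cDC2 than in pDC, in WT and in cKO cells, where 12.7% to 20.8% of all genes were called. That choice of genes fixes the direction in advance. Dntt, which encodes terminal deoxynucleotidyl transferase, was 4.53 lower in WT cDC1 than in WT pDC (adjusted p = 1.4e-10). Blnk, an adaptor of B cell receptor signalling, was 5.56 lower (adjusted p = 1.1e-12). Lag3, the gene next to Cd4 on chromosome 6 and a CD4 relative that binds MHC class II, was 2.64 lower in cKO cDC1 than in cKO pDC and 1.90 lower in WT cDC1 than in WT pDC (adjusted p = 4.5e-08 and 0.00013). The kinase Fyn, a partner of several of these receptors, was 1.98 lower in WT cDC1 and 2.49 lower in WT cDC2 than in WT pDC (adjusted p = 7.5e-06 and 3.8e-07). Markers of B cells moved the same way. Of 9 tested, 7 were lower in cKO cDC1 and 7 in cKO cDC2 than in cKO pDC, as were 4 in WT cDC1 and 5 in WT cDC2 than in WT pDC, where 1 (Cd22) was higher in WT cDC2. The B cell transcription factors Pax5 and Ebf1 were 1.44 and 2.48 lower in WT cDC1 than in WT pDC (adjusted p = 0.0064 and 0.00084). Summed B cell marker intensity was 567 to 952 in cKO cDC1, 349 to 551 in cKO cDC2 and 1275 to 2053 in cKO pDC, and 363 to 1063 in WT cDC1, 514 to 678 in WT cDC2 and 813 to 1710 in WT pDC. The part of B cell transcripts in the pDC values of Cd8b1 and Cd4 was not tested. Cd3d, Cd3e and Cd3g were not called between WT cDC1 or WT cDC2 and WT pDC, nor between cKO cDC1 and cKO pDC, while Cd3d and Cd3g were higher in cKO cDC2 than in cKO pDC. Summed T cell marker intensity was 403 to 704 in cKO cDC1, 429 to 815 in cKO pDC, 323 to 556 in WT cDC1 and 503 to 978 in WT pDC.

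The genes whose levels ran most like a member's over the 23 arrays differed between members. Cd8b1 was closest to Grm8, Fam3c, Cmah, Ly6d and Siglech, each at a Pearson r of 0.98, and Cd4 to Carmil1 (0.98), Hvcn1 (0.97), Ceacam1, Npc1 and Acap1 (0.96 each). Cd8a was closest to Clec9a, a cDC1 receptor for dead cells (0.94), then Rcbtb2 and Tmem140 (0.93) and Bst1 and Laptm4b (0.92). For Thy1 they were A430078G23Rik and Cd200r1 (0.85), Il2ra (0.84), Raph1 (0.83) and Ngfr (0.82), and for Cd6 Mapk10 and Mfsd7a (0.88), Il2rb and Fhod1 (0.87) and Gfra2 (0.85). Cd5 was closest to Rogdi (0.90) and Papolg (0.89), followed by Washc2, Nfkbie (0.88 each) and Baz2b (0.86). Cd2 had the weakest leading value, Rgs7bp at 0.83, then Zfp985 and Svbp (0.80) and Lxn and Irgc1 (0.79). Among the members, Thy1 and Cd6 correlated at 0.68 and Cd5 and Cd6 at 0.36. The arrays share cell types and array sets, so these values describe likeness of pattern only.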

How the data were processed

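Total RNA of 23 samples of sorted mouse splenic dendritic cells was measured on Affymetrix whole-transcript arrays. The deposited values are probe set intensities that the authors made with Affymetrix Expression Console and RMA, per the submitters' processing notes; versions are not given in the sources used here. The deposited intensities are on a linear scale (3.785 to 13980.744), so log2 was taken of them, and no further normalization was applied because the array medians (29.302 to 41.159) had been left unequal.

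Of 28853 probe sets, 21789 name 1 gene, 1621 several and 5443 none in the platform annotation; 21698 matched a RefSeq gene by Entrez ID. The brightest probe set by mean stood for a gene. Genes above the array median (percentile 50) on at least 3 arrays were tested with limma 3.58.1 in R 4.3.3, with 6 group means, 17 residual degrees of freedom, two-sided tests and Benjamini-Hochberg adjustment in each of 12 contrasts. The procedure was run on simulated data for the genotype comparison in cDC2, with independent noise on every array. That setting does not cover arrays that deviate together, as some here did. The number of arrays limits the precision. Replicates of a group correlated at 0.9442 to 0.9951 over all probe sets, and no arrays were counted as one. Up to 2436 values were equal between replicates of the brighter array set, where arrays of different cell types also shared 1196 to 2398. Replicate numbers were taken from the labels to pair arrays only where every same-numbered pair deviated together (r of 0.38 to 0.70 between WT cell types, 0.44 to 0.54 between genotypes in cDC1). In those pairs the replicate number and the array set by median intensity cannot be told apart.

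The named genes are the members, the 5 genes most correlated with each, their neighbours, the targeted gene, and up to 4 called genes of each list per contrast (up to 2 of the widest difference where none was called). Members and lists were chosen with earlier results of these data known. Tables were handled with pandas 2.3.3 and figures with matplotlib 3.10.9. The alternatives changed the scaling, the filter, the probe sets, the block or array set, the array weights and the arrays used.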

Additional observations from a re-analysis of the deposited data

How the results depend on the processing

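Differences are on the log2 scale, and a call is a limma adjusted p below 0.05. Filters on low values and the use of every probe set left each result reported on its side of the threshold and within 1.5 times its count. With all arrays, 101, 190 and 4 genes were called between genotypes in cDC1, cDC2 and pDC. The tests of whether the genotype effect differed called 34 (cDC1 against cDC2), 40 (cDC1 against pDC) and 59 genes (cDC2 against pDC), and the cell type comparisons in that order called 1088, 2485 and 2526 in cKO cells and 736, 1643 and 1548 in WT cells. Where a value below differs from these, the cause was not tested. After median centring the Cd6 difference in cDC2 was 0.79 and no longer called, while Cd2 passed in cDC2 (0.90) and between cKO cDC1 and cKO cDC2 (-0.70). After quantile normalization Cd6 in cDC2 was 0.72 and not called, Cd5 passed in WT cDC1 against WT cDC2 (-0.84) and WT cDC2 against WT pDC (0.69), and 7 genes were called in pDC. That scaling also moved the share of calls that were higher in cKO cDC2 than in cKO pDC to 53.7%, against 65.0% without it.

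Same-numbered arrays deviated together between the WT cell types (r of 0.38 to 0.70, all 9 pairs) and between the genotypes of cDC1 (0.44 to 0.54, 3 pairs), where the numbers were taken to pair the arrays. Each of those pairs also came from 1 of the 3 array sets by median intensity, so the number and the set cannot be told apart. In the other comparisons some pairs lay under 0.1 (1 of 3 pairs over it in cDC2 and in pDC), and the number was not taken to pair arrays there. Some of those arrays share an array set as well as a number, as in cKO cDC2 and cKO pDC. A block in fits of the WT arrays alone and the cDC1 arrays alone was chosen after seeing the data. It gave calls to Cd5 in WT cDC1 against WT cDC2 (-0.81) and WT cDC2 against WT pDC (0.78), changed no other member's call, and called 1459, 3034 and 2869 genes among WT cells. With the replicate number as a block in the fit of all arrays, Thy1 in cDC2 was 1.04 and missed the threshold (adjusted p = 0.057), Cd3g in cDC2 passed (2.01, adjusted p = 0.0193), and Cd2 passed in cDC2 (0.85) and between cKO cDC1 and cKO cDC2 (-0.63). The tests of the genotype effect then called 69 (cDC1 against cDC2) and 78 genes (cDC1 against pDC), cKO cDC1 against cDC2 1910, cKO cDC1 against pDC 3878 and WT cDC1 against cDC2 1158. With the block as a random effect, Cd5 in cDC1 turned to 0.02, Cd6 in cDC2 (0.83, adjusted p = 0.0888) was not called, and calls were gained for Cd5 in WT cDC1 against WT cDC2 (-0.81) and WT cDC2 against WT pDC (0.78) and for Cd2 in cKO cDC1 against cKO cDC2 (-0.65) and against cKO pDC (-0.44). That block gave 109, 83 and 150 genes for the 3 tests of the genotype effect, 1957 and 4074 for cKO cDC1 against cDC2 and against pDC, and 1377, 2748 and 2633 for the WT comparisons.

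With the 2 array sets as a term, Cd2 passed in cDC2 (0.92) and in cKO cDC1 against cKO cDC2 (-0.70), as did Cd5 in WT cDC1 against WT cDC2 (-0.81) and WT cDC2 against WT pDC (0.78). The counts were 344 in cDC2, 9 in pDC, 95, 68 and 116 for the genotype effect, 1751 for cKO cDC1 against cDC2, and 1291, 2611 and 2520 among WT cells. A division into 3 sets was chosen after seeing the data. With it Cd5 passed in cDC2 (-0.60), in WT cDC1 against WT cDC2 (-0.81), in WT cDC2 against WT pDC (0.78) and in cKO cDC2 against cKO pDC (0.46), and Cd2 passed in cDC2 (0.96), in cKO cDC1 against cKO cDC2 (-0.74) and against cKO pDC (-0.54). It called 212, 559 and 26 genes between genotypes, 148, 95 and 218 for the genotype effect, 2454, 4656 and 4768 among cKO cells and 1889, 3604 and 3539 among WT cells. With array weights, whose estimate stopped before its tolerance was met, Cd5 in cDC1 turned to 0.17, Cd2 in cKO cDC1 against cKO pDC turned to 0.09, and Cd2 in WT cDC2 against WT pDC (-1.03) was not called. The counts were then 271 in cDC1, 1 in pDC, 72 for the genotype effect of cDC1 against cDC2, and 2155, 6303 and 4200 among cKO cells.

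Without replicate 1 of the 3 WT groups, Cd8b1 in pDC turned to -0.13, Cd5 in cDC1 to 0.09 and Cd6 in cDC1 to 0.08, none of them called in any fit. Thy1 (1.12) and Cd6 (0.92) in cDC2, and Cd4 (-1.23) and Cd2 (-1.23) in WT cDC2 against WT pDC, were not called. The counts were 106 in cDC2, 17, 24 and 24 for the genotype effect and 430, 1064 and 890 among WT cells. With only the arrays of the groups compared, Thy1 (1.15) and Cd6 (0.83) in cDC2 and Cd4 (-1.51) and Cd2 (-1.12) in WT cDC2 against WT pDC were not called, 0 genes were called by limma in pDC (102 at an unadjusted p below 0.05), and WT cDC1 and WT cDC2 against WT pDC called 1002 and 937.

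When each array was left out in turn, the genotype difference ranged from -0.19 to 0.83 for Cd4 in pDC, from -0.13 to 0.55 for Cd8b1 in pDC, from -0.15 to 0.41 for Thy1 in cDC1 and from 1.02 to 1.27 for Thy1 in cDC2. It ranged from -0.35 to 0.20 for Cd5 in cDC1, from -0.52 to 0.01 for Cd5 in pDC, from -0.15 to 0.08 for Cd6 in cDC1 and from 0.67 to 0.96 for Cd6 in cDC2. For Cd4 in WT cDC2 against WT pDC the range was -2.04 to -1.02, for Thy1 in cKO cDC2 against cKO pDC 0.66 to 0.91, and for Cd2 -0.86 to -0.55 in cKO cDC1 against cKO cDC2, -1.38 to -1.05 in WT cDC1 against WT pDC and -1.33 to -0.99 in WT cDC2 against WT pDC. Genes called ran from 66 to 108 in cDC1, 107 to 209 in cDC2, 1 to 7 in pDC, 22 to 37 for the genotype effect of cDC1 against cDC2 and 39 to 66 for cDC2 against pDC. The number of arrays limits the precision throughout.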
